A study of Mus musculus with 2 samples.

Results

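The heat shock chaperone genes Hspa1a, Hspa1b, Hspb1, Hsp90aa1, Hsp90ab1, Dnajb1, Hsph1, Hspa8, Hspe1 and Hspd1 were followed through 2 single-cell RNA libraries of mouse liver. They were chosen by symbol, and all 10 were found among the 27998 genes of both libraries. The libraries came from liver nonparenchymal cells, the fraction left in suspension after hepatocytes are spun down, of C57BL/6 mice that had received carbon tetrachloride 4 times. One library was wild type. The other was labelled yap1, and the series' design text gives its genotype as yap1flox/floxlyz2cre, in which Cre is expressed from the Lyz2 locus of myeloid cells. Each library was a sample from 3 mice, and no group without carbon tetrachloride was analysed here. The toxin is metabolised by hepatocytes, injures them and leads to fibrosis when given repeatedly. With 1 library per genotype there was no replicate check, so no test is given. Every range in parentheses is a 95% interval for counting error alone, and in each pair of values the wild-type library comes first.

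Chaperones bind unfolded or partly folded proteins and keep them from aggregating. When unfolded protein accumulates, heat shock factor 1 is released from chaperones, forms trimers and binds heat shock elements, which are inverted repeats of the pentamer nGAAn, in the promoters of its targets. HSP70 proteins (Hspa1a, Hspa1b, Hspa8) cycle on and off their clients with ATP. A J-domain protein (Dnajb1) starts the cycle, a nucleotide exchange factor of the HSP110 family (Hsph1) releases the client, HSP90 (Hsp90aa1, Hsp90ab1) takes over later folding steps, and HSP60 with its lid HSP10 (Hspd1, Hspe1) folds proteins inside mitochondria. Hspb1 encodes HSP27, a small heat shock protein that holds unfolded clients without ATP and binds actin. Hspa8 and Hsp90ab1 are the constitutive forms, and Hspa1a and Hspa1b the forms known for strong induction by stress. The same genes, like immediate early genes, can also be induced while tissue is dissociated into single cells.

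The sequences upstream of these genes are shown first. Hspa1a and Hspa1b, whose UMIs later correlated most over cells, share most of theirs. So do Hspe1 and Hspd1, whose UMIs correlated little. These UMIs varied over cells hardly more than by counting error, so the correlations of the 2 pairs cannot be compared. RefSeq promoters of build GRCm38.p6 (250 bases before to 50 after a start site, 300 in all) were found for 7 of the 10 genes and are missing for Hsp90aa1, Hsp90ab1 and Hspa8. Capitals mark each match to a pair of inverted heat shock units, spelled GAANNTTC or TTCNNGAA and so covering both strands, with overlapping matches allowed. The stretches run up to the base before the start site, except for Hspd1, shown only around its match, and for a short stretch of Hsph1 after its start site. The positions are chr17:34972157-34972406 for Hspa1a and chr17:34959239-34959488 for Hspa1b, both on the minus strand, and chr5:135887769-135887918 for Hspb1 on the plus strand. Those of Hsph1 are chr5:149636337-149636396 and chr5:149636287-149636310 on the minus strand. Hspe1 is shown at chr1:55087998-55088147 on the plus strand, and Hspd1, from the second of its start sites, at chr1:55088033-55088092 on the minus strand.
Hspa1a: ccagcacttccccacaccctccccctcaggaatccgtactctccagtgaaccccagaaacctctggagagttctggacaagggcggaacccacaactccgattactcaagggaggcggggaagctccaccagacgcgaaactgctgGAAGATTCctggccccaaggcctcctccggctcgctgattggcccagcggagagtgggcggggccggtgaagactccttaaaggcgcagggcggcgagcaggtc
Hspa1b: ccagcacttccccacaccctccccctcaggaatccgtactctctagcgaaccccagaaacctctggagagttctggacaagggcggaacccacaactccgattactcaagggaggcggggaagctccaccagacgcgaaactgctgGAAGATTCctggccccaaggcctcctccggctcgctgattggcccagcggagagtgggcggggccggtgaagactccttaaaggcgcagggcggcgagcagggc
Hspb1: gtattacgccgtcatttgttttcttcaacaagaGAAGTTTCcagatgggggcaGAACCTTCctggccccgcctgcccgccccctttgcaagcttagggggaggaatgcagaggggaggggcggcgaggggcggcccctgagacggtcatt
Hsph1, before the start site: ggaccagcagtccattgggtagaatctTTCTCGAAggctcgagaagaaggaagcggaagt
Hsph1, after the start site: atgctgcagaTTCTGGAAAGTTCt
Hspe1: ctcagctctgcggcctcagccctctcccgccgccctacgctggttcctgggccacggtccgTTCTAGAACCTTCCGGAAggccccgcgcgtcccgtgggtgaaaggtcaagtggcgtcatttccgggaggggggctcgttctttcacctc
Hspd1: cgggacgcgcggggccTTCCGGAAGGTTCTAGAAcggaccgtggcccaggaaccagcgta

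A pair of inverted units was found in 7 of the 10 promoters of these 7 genes, some of which have a second start site, against 15.1% of all 32851 promoters of the same length. A run of 3 such units in alternating orientation, each separated from the next as in the pairs, was found in promoters of 3 genes, Hsph1, Hspe1 and Hspd1, against 0.603% of all promoters. These promoters are not separate sequences. The 2 of Hsph1 overlap and hold the same 3 matches, and the matched promoters of Hspe1 and Hspd1 have 285 bases in common. Those of Hspa1a and Hspa1b are near copies. The same stretch is therefore counted more than once, and the counts cannot be set directly against the shares of all promoters. Hspa1a and Hspa1b each had 1 match, 104 bases upstream of the start site. Their 300-base promoters were identical at 296 positions (98.7%), and the upstream stretches printed above differ by C44T, T47C and T249G, counted from 1 at the 5′ end with the Hspa1a base first. The genes lie 9951 bases apart on chromosome 17. Hspe1 and Hspd1 lie head to head on chromosome 1, overlap by 112 bases and share their capitals, read from opposite strands. Dnajb1 had no match in either of its 2 promoters, and Hspd1 none in the promoter of its first start site. A match is a string of letters, and binding was not measured here.

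In GENCODE M21 (GRCm38), all 10 members are protein-coding. Hspa1a spans 34969190 to 34972156 and Hspa1b 34956436 to 34959238 on chromosome 17, where Hsp90ab1 lies at 45567775 to 45573271. Hspb1 lies on chromosome 5 at 135887919 to 135889563 and Hsph1 at 149614287 to 149636376. Dnajb1 lies on chromosome 8 at 83608193 to 83612653, Hspa8 on chromosome 9 at 40800984 to 40810087 and Hsp90aa1 on chromosome 12 at 110690605 to 110702728. Hspe1 spans 55088132 to 55091307 and Hspd1 55077835 to 55088243 on chromosome 1. Pseudogenes can share reads with several members. Of the 50-base words at the 3′ ends of the transcripts, 60.6% also occurred in another gene for Hspa8, 40.9% for Hsp90aa1, 39.2% for Hspb1, 29.8% for Hspd1, 26.6% for Hspe1 and 4.11% for Hsp90ab1. The sources used here do not say how such reads were counted, so levels of these 6 genes are uncertain. The shares count distinct words over all annotated transcripts of a gene, not reads, so they do not measure how uncertain. For Hspa1a, Hspa1b, Dnajb1 and Hsph1 the share was 0%, so Hspa1a and Hspa1b can be told apart by their 3′ ends.

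The wild-type library held 30386545 UMIs, which are counts of distinct captured RNA molecules, in 5269 barcodes, and the yap1 library 34234353 in 4731. After filters, 4847 and 4149 cells remained, with medians of 4115 and 5323 UMIs, and 5 barcodes occurred in both libraries. Cells were assigned to classes by marker genes, and a class is called by its markers with the ending -like. Of the kept cells, 833 and 817 met no class's rule and stayed ungated. Comparisons were limited to 10 classes that reached 50 cells in both libraries: Kupffer cell-like (364 and 182 cells), monocyte-derived macrophage-like (154 and 228), classical monocyte-like (269 and 283), nonclassical monocyte-like (167 and 131), neutrophil-like (430 and 488), plasmacytoid dendritic cell-like (134 and 82), B cell-like (1324 and 934), T cell-like (467 and 472), sinusoidal endothelial cell-like (430 and 320) and hepatocyte-like cells (114 and 100). Hepatocytes are not nonparenchymal cells. The hepatocyte-like barcodes were led by Ttr, Alb and Saa1, and their medians of 1466 and 1868 UMIs were below those of the other 9 classes. Yap1 had between 0 and 2 UMIs per library in each of the 8 classes that are neither endothelial nor hepatocyte-like, and 67.4 (55.1 to 81.6) and 67.1 (52.2 to 85.0) CPM (the UMIs of a gene scaled to a total of 1000000 UMIs of the class) in sinusoidal endothelial cell-like cells. The floxed exon was not named in the labels, and these counts check neither the deletion nor the labels.

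The members together took between 3459 and 5482 CPM in every compared class but one. Neutrophil-like cells, short-lived granulocytes with little RNA, stood at 814 and 937 CPM. They had the lowest level of Hsp90aa1, Hsp90ab1, Hsph1, Hspa8, Hspe1 and Hspd1 in both libraries, while Dnajb1, at 50.5 and 73.2 CPM, was neither the lowest nor the highest there. The order of the classes was the same in both libraries for Hspe1 and less alike for Hsp90ab1, Hsp90aa1 and Hspb1. For these 3 the highest class differed between the libraries. Spearman's rho between them over the 10 classes was 1 for Hspe1, 0.939 for Hspd1 and 0.927 for Hspa1a and Hspa8. It was 0.891 for Hspa1b and Dnajb1, 0.806 for Hsph1, 0.733 for Hsp90ab1, 0.721 for Hsp90aa1 and 0.608 for Hspb1. These are descriptions, since both orders rest on the same gates and the same protocol.

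**Figure D1:**
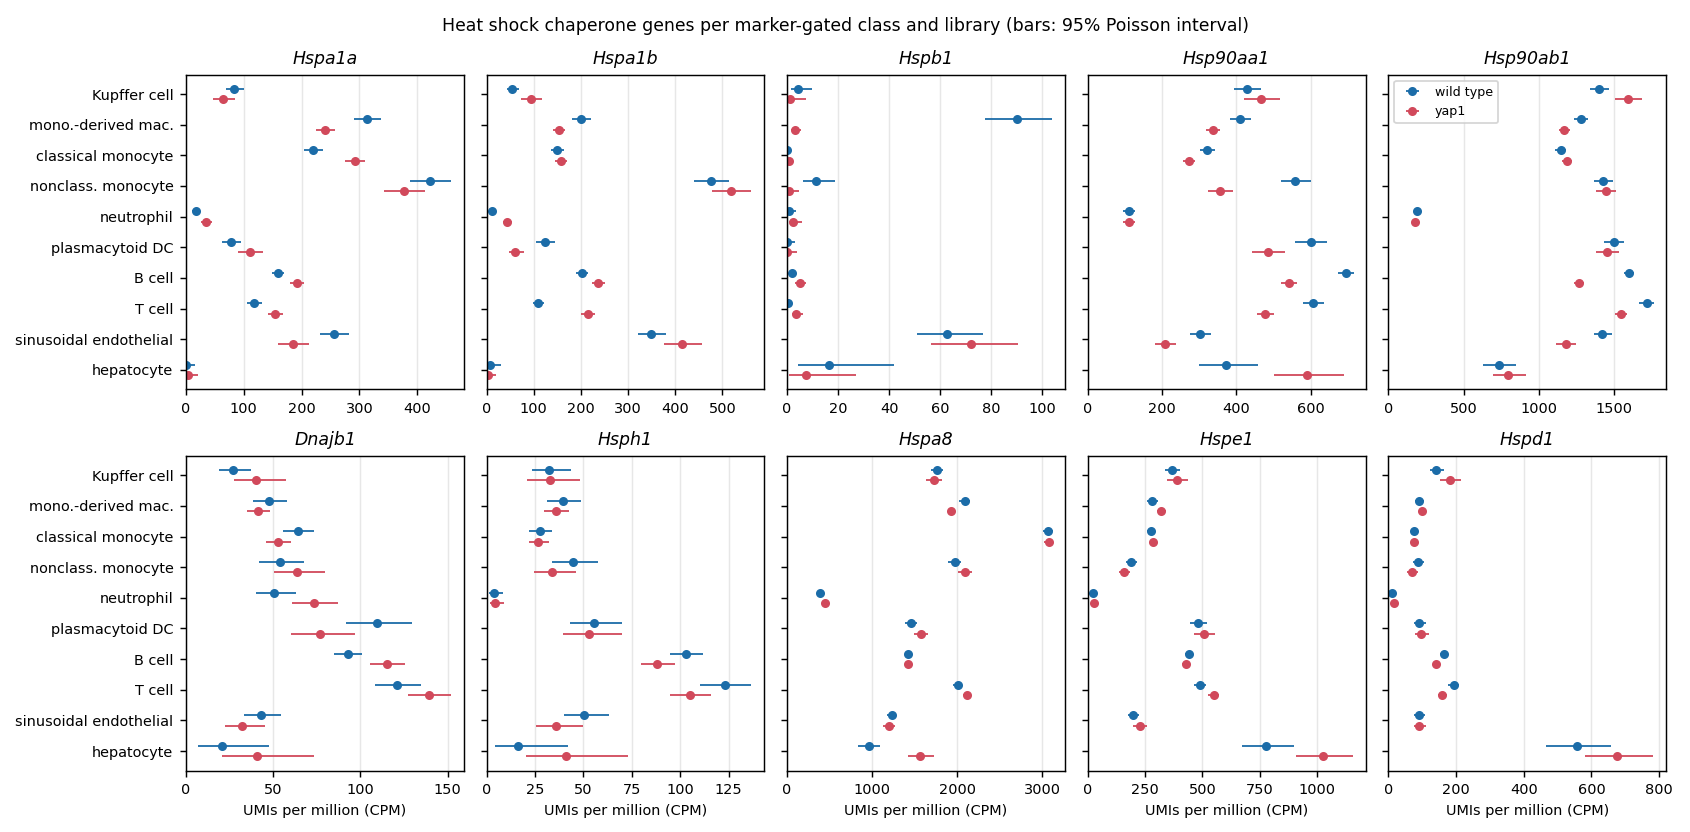
Level of each heat shock chaperone gene in the 10 compared marker-gated classes. The x axis is CPM, with its own scale in each panel, blue points are the wild-type and red points the yap1 library, and bars are 95% Poisson intervals. Neutrophil-like cells are low for most members, Hspa8 peaks in classical monocyte-like cells at 3065 and 3075 CPM, and Hspe1 and Hspd1 peak in hepatocyte-like cells.

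The stress-inducible HSP70 genes differed widely between classes. Hspa1a was highest in nonclassical monocyte-like cells, the patrolling monocytes of the blood vessel wall, at 422 (387.5 to 458) and 377 (342 to 413) CPM, and Hspa1b was highest there too, at 476 (439.7 to 515) and 519 (478 to 561) CPM. In neither library did the interval of the next class reach these values. Next for Hspa1b came sinusoidal endothelial cell-like cells, the fenestrated lining of the liver capillaries, at 349 and 416 CPM. Hspa1a stood at 314 and 241 CPM in monocyte-derived macrophage-like cells, at 220 and 292 in classical monocyte-like cells and at 256 and 185 in sinusoidal endothelial cell-like cells. B cell-like cells had 159 and 192 CPM of Hspa1a and 202 and 237 of Hspa1b. Kupffer cell-like cells, named for the macrophages that reside in the sinusoids, were low, at 83.8 and 63.7 CPM of Hspa1a and 54.4 and 93.7 of Hspa1b. Hepatocyte-like cells were lowest, with 0 and 1 UMI of Hspa1a and 2 and 1 of Hspa1b, where a count of 0 allows up to 12.3 CPM. Their depth was low, but after each cell was reduced to 1000 UMIs, 0 of 85 and 0 of 75 hepatocyte-like cells still had a Hspa1a UMI, against 15.1% and 16.8% of nonclassical monocyte-like cells.

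Dnajb1, the J-domain partner, and Hsph1, the exchange factor, were highest in T cell-like cells. Dnajb1 stood there at 121 (108 to 134) and 139 (127 to 152) CPM. B cell-like (92.8 and 115 CPM) and plasmacytoid dendritic cell-like cells (109 and 77.0 CPM) came next, and the wild-type intervals of plasmacytoid dendritic cell-like and T cell-like cells overlap. Hsph1 stood at 123 and 105 CPM in T cell-like and at 103 and 88.2 CPM in B cell-like cells, whose intervals overlap those of T cell-like cells in both libraries. In the other compared classes except neutrophil-like, Hsph1 was between 16.4 and 55.5 CPM. So the lymphoid classes were high for the cochaperones, while Hspa1a and Hspa1b were highest in nonclassical monocyte-like cells. Hsp90aa1, the inducible HSP90, was also high in lymphoid classes of the wild-type library, at 694 CPM in B cell-like, 607 in T cell-like and 599.6 in plasmacytoid dendritic cell-like cells. In the yap1 library hepatocyte-like (591 CPM, 502 to 689.8) and B cell-like cells (541, 519.8 to 562) were highest, with overlapping intervals.

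The constitutive cytosolic chaperones were found in most cells of the classes other than neutrophil-like cells. Of these, 57.4% and 62.1% had a Hspa8 UMI but only 29.8% and 29.9% a Hsp90ab1 UMI. Kupffer cell-like cells, with fewer UMIs per cell, had 90.7% and 94.5% for Hspa8 and 88.2% and 93.4% for Hsp90ab1. Hspa8, the housekeeping HSP70 that also uncoats clathrin vesicles, was highest in classical monocyte-like cells, at 3065 (3005 to 3126) and 3075 (3022 to 3128) CPM, and 99.6% of these cells in each library had a UMI, with medians of 33 and 42 per cell. T cell-like (2008 and 2118 CPM), nonclassical monocyte-like (1970 and 2094) and monocyte-derived macrophage-like cells (2086 and 1930) followed, and neutrophil-like cells had 393 and 448 CPM. Outside neutrophil-like and hepatocyte-like cells, Hsp90ab1, the constitutive HSP90, varied less than Hspa8, at 1145 to 1715 CPM against 1199 to 3075. Neutrophil-like cells stood at 192 and 177 CPM and hepatocyte-like cells at 733 and 799.

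The mitochondrial pair was highest in hepatocyte-like cells. Hspe1 stood there at 778 (671 to 897) and 1025 (908 to 1153) CPM and Hspd1 at 557 (467 to 659) and 676 (581 to 782) CPM. T cell-like cells came next for Hspe1, at 488 and 548 CPM, with intervals that overlap those of plasmacytoid dendritic cell-like cells in both libraries. For Hspd1 the next class was T cell-like (193 CPM) in the wild-type library and Kupffer cell-like (183 CPM) in the yap1 library, where T cell-like cells stood at 159 CPM with an overlapping interval. Neutrophil-like cells had 24.9 and 27.1 CPM of Hspe1 and 12.1 and 16.1 of Hspd1, or 39 and 47 and then 19 and 28 UMIs. The 10 classes stood in the same order for Hspe1 in both libraries.

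Among classes too small to be compared, Hspb1 was highest in mesenchymal cell-like cells, the fibroblast and stellate lineage, at 645 (523 to 788) and 445 (318 to 607) CPM in 18 and 9 cells. However, 76 of the 96 and 26 of the 40 UMIs were in 1 barcode each, and without it the levels were 171 and 188 CPM. Cholangiocyte-like cells, the bile duct epithelium, had 144 and 119 CPM in 16 and 9 cells, and 50.0% and 66.7% of them had a UMI. Dnajb1 stood at 781 (515 to 1137) and 1575 (1318 to 1868) CPM in 6 and 13 basophil or mast cell-like cells, above every compared class. Those cells also held 44334 and 63830 CPM of the 16 immediate early genes, against 15946 and 21892 CPM in neutrophil-like cells, the highest compared class, and the part of dissociation in the Dnajb1 level was not tested.

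A class total can come from all of its cells or from a few, so UMIs were followed cell by cell. To remove depth, 1000 UMIs were drawn from each cell, and the variance of a gene's UMIs was divided by their mean, which gives 1 for Poisson counting. Hsp90ab1, Hspa8, Hspe1 and Hspd1 stayed close to that value. In B cell-like cells, the largest class, they gave 1.34 and 1.23, 1.27 and 1.39, 1.25 and 1.09, and 1.09 and 1.20. Hspa1a gave 8.78 and 8.92 there and Hspa1b 10.1 and 9.15. The inducible HSP70 genes were therefore more unevenly spread over B cell-like cells than the constitutive ones.

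The degree of unevenness differed between classes. Variance over mean is again from the drawn UMIs. The other values of this paragraph use all UMIs of each cell, so they also depend on depth and on the level of the gene. The median was 0 UMIs per cell for both genes in all 10 classes of both libraries. In B cell-like cells, 7.63% and 8.35% of cells had a Hspa1a UMI, the highest cell held 108 and 117, and the 5% of cells with most held 96.2% and 96.5% of the class's UMIs. For Hspa8 in the same cells, 96.5% and 97.8% had a UMI and the top 5% held 21.6% and 19.1%. In plasmacytoid dendritic cell-like cells, 5 cells of 134 held 98.0% of the Hspa1a and 94.9% of the Hspa1b UMIs in the wild-type library, and 5 of 82 held 92.5% and 94.9% in the yap1 library. Sinusoidal endothelial cell-like cells gave variance over mean of 1.76 and 1.52 for Hspa1a, and their top 5% of cells held 61.5% and 62.1%. The top 5% held 60.3% and 48.9% in classical monocyte-like and 58.1% and 44.7% in nonclassical monocyte-like cells. Wild-type Kupffer cell-like and neutrophil-like cells gave variance over mean of 0.975 and 0.984 for Hspa1a. These rest on 9 and 7 drawn UMIs, at most 1 per cell, so they cannot show whether the spread was even. In the yap1 library the values were 3.47 and 0.983, on 8 drawn UMIs each. Of all Hspa1a UMIs of Kupffer cell-like cells, the top 5% of cells held 91.2% and 93.9%. In NK cell or ILC1-like cells (40 and 36 cells), Hspa1a stood at 195 and 10.9 CPM, but 48 of the 55 wild-type UMIs were in 1 cell.

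**Figure D2:**
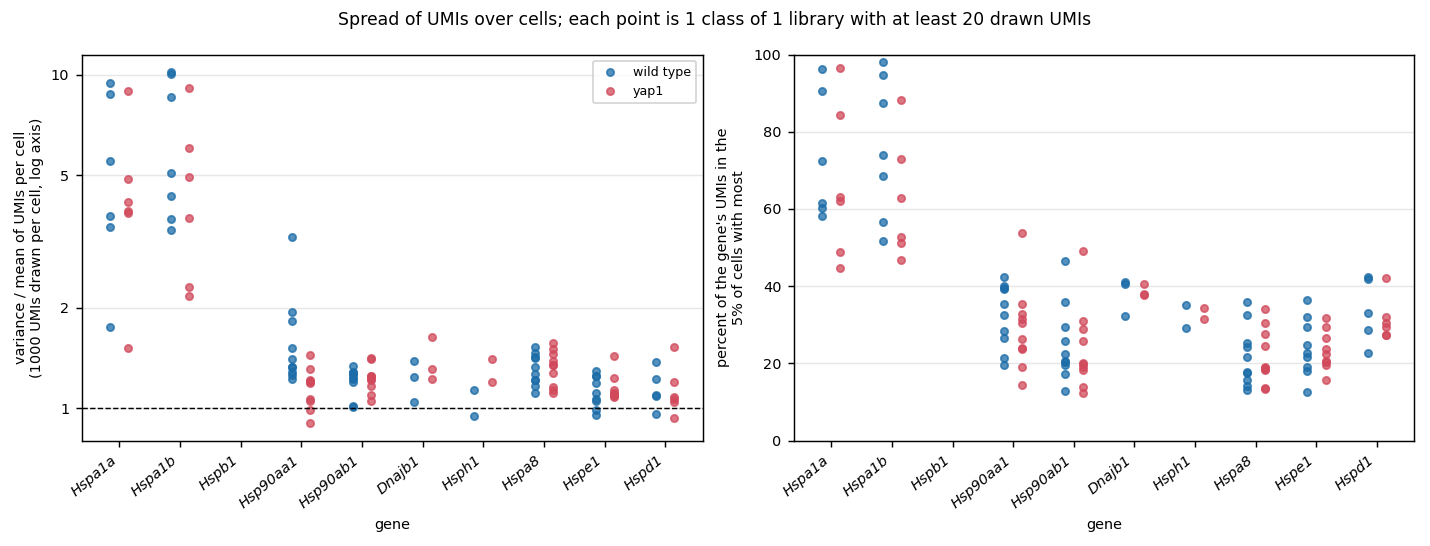
Unevenness over cells. Each point is 1 class of 1 library with at least 20 UMIs of the gene after 1000 UMIs were drawn from each cell, blue for wild type and red for yap1. The left y axis is variance over mean of the drawn UMIs per cell (log axis, the dashed line at 1 is Poisson counting). The right y axis is the percent of a gene's UMIs held by the 5% of cells with most. It uses all UMIs, not the drawn ones, so it also depends on depth and on the level of the gene. The medians over these points are 4.03 and 4.93 for Hspa1a and Hspa1b on the left and 62.5% and 68.5% on the right, but their lowest points overlap the highest of Hsp90aa1. Hspb1 had too few UMIs to be drawn.

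The 2 genes tended to be high in the same cells. Over cells of a class reduced to 1000 UMIs, Pearson's r between Hspa1a and Hspa1b had a median of 0.598 over the 12 class and library combinations with enough UMIs, ranged from 0.451 to 0.908, and was at least 0.3 in all 12. Pearson's r gives much weight to the few cells with many UMIs. Spearman's rho over the same 12 ranged from 0.254 to 0.708. It was 0.383 in wild-type monocyte-derived macrophage-like cells, where r was 0.908. The cells of a library share depth and handling, so this is a description. Hspa1b with Dnajb1 had a median r of 0.314 and Hspa1a with Dnajb1 of 0.281 over 4 combinations, all of B cell-like or T cell-like cells. Their rho ranged from 0.0946 to 0.257. Every remaining pair had a median r of at most 0.204. The mitochondrial partners Hspe1 and Hspd1, which share their upstream region, had a median r of 0.0492 over 11 combinations. Their drawn UMIs had a median variance over mean of 1.11 and 1.09, close to Poisson counting. At such a spread r stays low whether or not genes vary together. It therefore cannot be set against the r of Hspa1a and Hspa1b.

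Cells with at least 10 Hspa1a and Hspa1b UMIs among the 1000 drawn were then looked at as a range, with a limit chosen after the values were seen. There were 32 of 3628 such cells in the wild-type library (0.882%, 0.604 to 1.24%) and 26 of 3031 in the yap1 library (0.858%, 0.561 to 1.25%). They held 45.2% and 36.6% of all Hspa1a and Hspa1b UMIs of the drawn cells. A further 36 and 43 cells had between 5 and 9 such UMIs, so the limit cuts through a continuous range. The share was highest in nonclassical monocyte-like cells, at 3.01% (0.985 to 6.89%) and 3.82% (1.25 to 8.68%). It was 1.37% and 1.29% in B cell-like cells, which gave 18 and 12 of the cells. Kupffer cell-like, neutrophil-like and hepatocyte-like cells had none in either library, and 0 of 376 and 0 of 414 neutrophil-like cells allow a share of up to 0.798% and 0.725%. The limit was 0.940% and 1.85% in Kupffer cell-like and 3.53% and 4% in hepatocyte-like cells, so the latter could match the highest class. Plasmacytoid dendritic cell-like and sinusoidal endothelial cell-like cells had none in the yap1 library alone.

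These cells were also high for the other inducible members. Their full UMIs were compared with the UMIs expected from the other cells of the same classes and library. Dnajb1 stood at 526 against 73.9 CPM in the wild-type library, 7.11-fold (5.68 to 8.80), and at 728 against 87.0 CPM in the yap1 library, 8.36-fold (6.87 to 10.1). Hsph1 was 6.94-fold and 6.07-fold higher and Hsp90aa1 4.77-fold and 4.32-fold. Of the wild-type UMIs, 1 cell held 93 of 424 for Hsp90aa1, 12 of 77 for Hsph1 and 5 of 85 for Dnajb1. These folds without that cell were not tested. The mitochondrial pair followed at 2.72-fold and 2.47-fold for Hspe1 and 2.51-fold and 3.09-fold for Hspd1. The constitutive genes were nearest to the other cells, at 1.82-fold and 1.66-fold for Hspa8 and 1.70-fold and 1.42-fold for Hsp90ab1.

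Hspb1 was 251-fold and 31.4-fold higher, but on fewer than 1 expected UMI in each library, and 182 of its 183 wild-type UMIs were in 1 cell. Among genes outside the member list, the J-domain gene Dnaja1 was 2.65-fold and 2.01-fold higher, and Ubb was 1.91-fold and 1.55-fold higher. Of the 6 members with at least 10 expected UMIs in each library, 5 were at least 1.5-fold higher in both. Of all 2083 such genes, Hspa1a and Hspa1b not counted, 28 were (1.34%). None of the 12 endoplasmic reticulum chaperones and none of the 10 chaperonin or prefoldin genes that could be compared were.

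Signs of handling were measured in the same cells. Of the 16 immediate early genes, 3 were at least 1.5-fold higher in both libraries, among them Jun at 10.1-fold and 5.27-fold, and their summed level was 1.96-fold and 1.23-fold that of the other cells. The median mitochondrial share was 4.92% against 5.16% in the wild-type and 5.36% against 4.59% in the yap1 library. Whether these cells met stress in the liver or after it was taken apart was not tested. With a limit of 5 UMIs, 68 and 69 cells were counted, and with a limit of 20, 7 and 4.

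**Figure D3:**
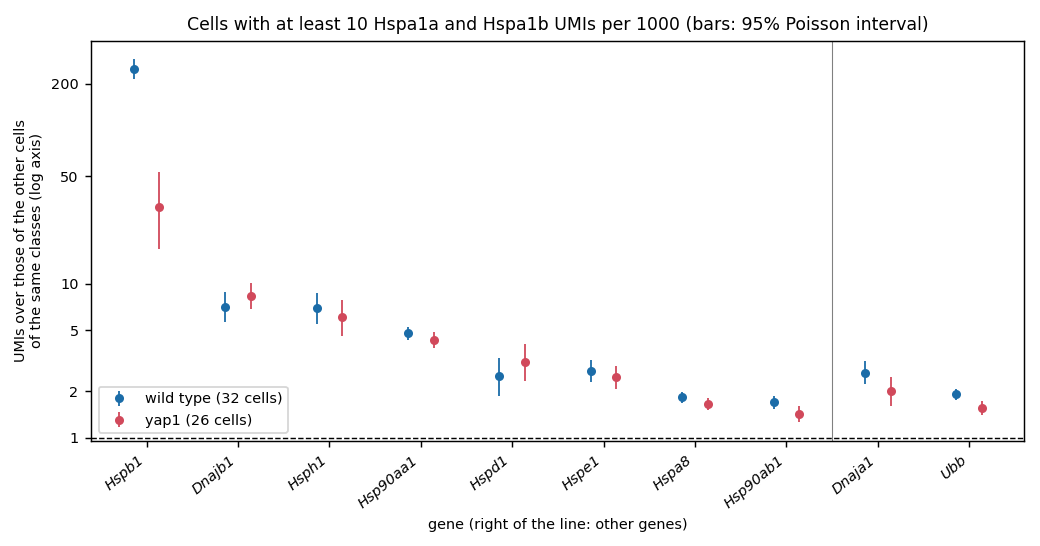
Cells with at least 10 Hspa1a and Hspa1b UMIs among 1000 drawn. The y axis (log) is the ratio of a gene's UMIs in these cells to those expected from the other cells of the same classes, blue for the 32 wild-type and red for the 26 yap1 cells, with 95% Poisson intervals. Dnajb1, Hsph1 and Hsp90aa1 lie between 4.32-fold and 8.36-fold, Hspa8 and Hsp90ab1 below 2-fold, and Hspb1 rests on fewer than 1 expected UMI.

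Hspb1 was the rarest member, with 528 UMIs in 91 wild-type and 301 UMIs in 80 yap1 cells. A single wild-type barcode of the monocyte-derived macrophage-like class held 182 of them, 34.5% of the library's total, among 11362 UMIs. The same barcode held 205 Hspa1a, 139 Hspa1b, 93 Hsp90aa1 and 12 Hsph1 UMIs, 2.44% mitochondrial UMIs, 6 of the 8 macrophage markers and none of the endothelial, mesenchymal or cholangiocyte markers. The class therefore stood at 89.97 CPM (77.6 to 104) in the wild-type and 3.05 CPM (1.52 to 5.46) in the yap1 library, where all 11 UMIs were in 1 cell. In sinusoidal endothelial cell-like cells, by contrast, 97 and 74 UMIs were spread over 8.60% and 11.6% of cells, with 22 and 15 in the highest, and the level was 62.8 (51.0 to 76.7) and 72.0 (56.5 to 90.4) CPM. Plasmacytoid dendritic cell-like cells had 0 UMIs in both libraries, which allows up to 2.38 and 3.12 CPM.

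**Figure D4:**
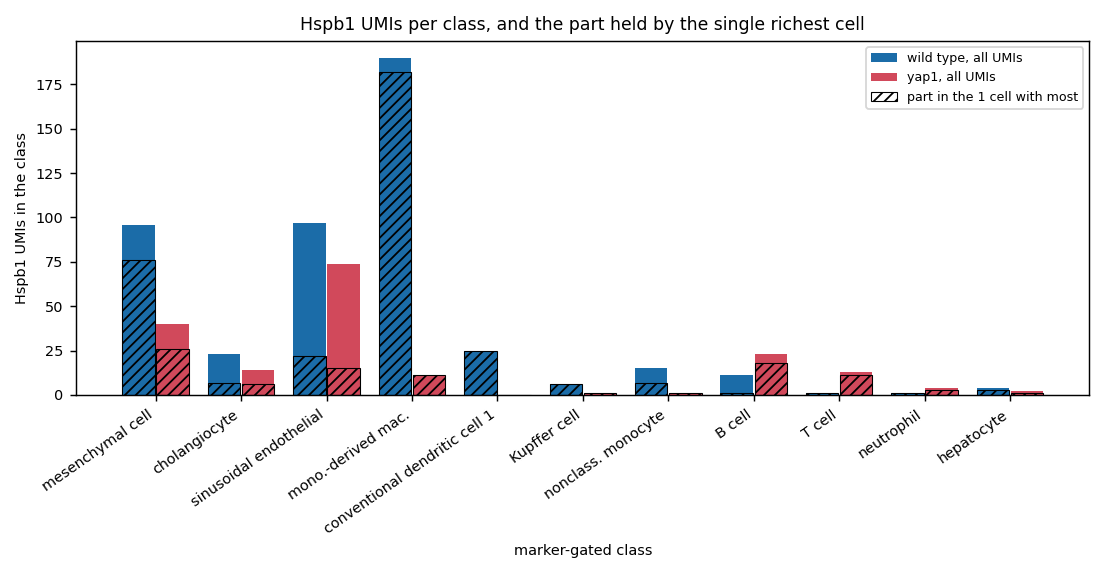
Hspb1 UMIs per marker-gated class. Bars start at 0 and give all UMIs of the class, blue for wild type and red for yap1, and the hatched part is the single cell with most. In wild-type monocyte-derived macrophage-like cells 182 of 190 UMIs lie in 1 cell, while the 97 and 74 UMIs of sinusoidal endothelial cell-like cells are spread more widely.

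Levels of the 2 libraries were then compared class by class. Of the 100 pairs of a member and a class, 88 had at least 20 UMIs over both libraries. In 3 of them the CPM was at least 1.5-fold lower in the yap1 library (3.41%) and in 7 at least 1.5-fold higher (7.95%). Over all genes with as many UMIs in the same classes, 7.83% of pairs were lower and 9.03% higher by that much, so the members did not stand out by number. The interval of the ratio excluded 1 in 48 of the 88 pairs, 23 below and 25 above, but with 1 library per genotype these intervals leave out the variation between mice and between preparations.

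The background by class was as follows. Of all genes compared, 11.7% were lower and 9.53% higher in Kupffer cell-like cells, 6.63% and 9.21% in monocyte-derived macrophage-like cells, 6.45% and 7.06% in classical monocyte-like cells and 10.1% and 5.99% in nonclassical monocyte-like cells. In neutrophil-like cells the shares were 5.9% and 23.4%, and the median of all genes was 0.23 higher on the log2 scale. Plasmacytoid dendritic cell-like cells had 8.63% and 7.21%, B cell-like cells 6.31% and 5.5%, T cell-like cells 5.44% and 7.34%, and sinusoidal endothelial cell-like cells 9.61% and 7.08%. Hepatocyte-like cells had 9.9% and 19.9%, with a median of 0.12. Against this, no member passed 1.5-fold in classical monocyte-like or sinusoidal endothelial cell-like cells.

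Hsp90aa1 was lower in the yap1 library in 7 of the 10 classes, each with an interval below 1 when all cells were kept. The median ratio over classes was 0.815. Between 30.9% and 54.8% of all genes compared were below 1 in each class. How many genes were below 1 in as many classes was not counted. In every alternative processing tried, 7 or 8 of the 10 classes were below 1 for Hsp90aa1. The ratio was 0.638 (0.564 to 0.720) in nonclassical monocyte-like cells, with 559 and 356 CPM, 0.685 (0.580 to 0.807) in sinusoidal endothelial cell-like cells, with 303 and 207 CPM, and 0.779 (0.741 to 0.820) in B cell-like cells. It was 0.786 in T cell-like, 0.807 in plasmacytoid dendritic cell-like, 0.823 in monocyte-derived macrophage-like and 0.845 in classical monocyte-like cells. Of the 866 wild-type Hsp90aa1 UMIs of monocyte-derived macrophage-like cells, 93 were in the Hspb1-rich barcode described above. Whether the interval of this class stays below 1 without that barcode was not tested. Without the barcode richest in Hspb1 of each library, 7 of 10 classes were below 1 and the median ratio was 0.826. Kupffer cell-like (1.09) and neutrophil-like cells (1.01) had intervals that include 1, and hepatocyte-like cells were higher, at 1.59 (1.22 to 2.07). Hsph1 was also below 1 in 7 of 8 classes with enough UMIs, but its interval excluded 1 only in B cell-like (0.859, 0.755 to 0.977) and T cell-like cells (0.854, 0.736 to 0.991). Genotype and library cannot be told apart in these ratios.

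Hspa1b lay on both sides of 1. In T cell-like cells it stood at 110 (97.7 to 123) and 214 (199.6 to 230.0) CPM, a ratio of 1.95 (1.71 to 2.24) on 306 and 780 UMIs. The difference was not limited to a few cells: 51 of 467 and 108 of 472 cells had a UMI, and at 1000 UMIs per cell the shares were 5.17% (3.34 to 7.60%) and 9.96% (7.41 to 13.02%). Without the 5 cells with most Hspa1b in each library the ratio was 2.25. Hspa1a gave 1.31 in the same cells. The immediate early genes together stood at 7298 and 7397 CPM in these cells, with Ier3 at 1.87, Atf3 at 1.53 and Gadd45b at 0.515, and their part in the Hspa1b ratio was not tested.

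The other Hspa1b differences rested on few cells. In neutrophil-like cells the ratio was 3.98 (2.33 to 7.18) on 17 and 75 UMIs, and 1.21 without the 5 cells with most in each library. In Kupffer cell-like cells it was 1.72 (1.23 to 2.41) on 74 and 72 UMIs, and 1.16 without such cells. The immediate early genes together stood at 15946 and 21892 CPM in neutrophil-like and at 5245 and 3316 CPM in Kupffer cell-like cells, and their part in these ratios was not tested. In plasmacytoid dendritic cell-like cells the Hspa1b ratio was 0.493 (0.359 to 0.669) on 157 and 59 UMIs, of which 81 and 31 were in 1 cell each. It was 0.507 without the 5 cells and 1.01 without the cells rich in Hspa1a and Hspa1b. The last value leaves out 1 wild-type cell and 0 yap1 cells of the class. The Hspa1a ratio did not follow that of Hspa1b in every class. It was 1.42 (1.07 to 1.89) in plasmacytoid dendritic cell-like and 0.761 (0.533 to 1.07) in Kupffer cell-like cells. In sinusoidal endothelial cell-like cells Hspa1a had 0.722 (0.604 to 0.861) and Hspa1b 1.19 (1.05 to 1.35). Hspa1a passed 1.5-fold in neutrophil-like cells, with 26 and 60 UMIs and a ratio of 2.08 (1.29 to 3.43), which was 1.28 without the 5 cells. The Hspb1 ratios past 1.5-fold also rested on few cells. In monocyte-derived macrophage-like cells the Hspb1 ratio was 0.0339 (0.0166 to 0.0620) with the barcode described above and 0.801 without it. Without that 1 wild-type barcode, with no yap1 cell of the class left out, the ratios of Hspa1a and Hspa1b in the same class were 1.11 and 1.13, against 0.770 and 0.762 with it. In B cell-like cells the Hspb1 ratio was 2.48 (1.16 to 5.64) on 11 and 23 UMIs, of which 18 were in 1 yap1 barcode that also had 4 endothelial markers, and in sinusoidal endothelial cell-like cells 1.15 (0.835 to 1.57).

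**Figure D5:**
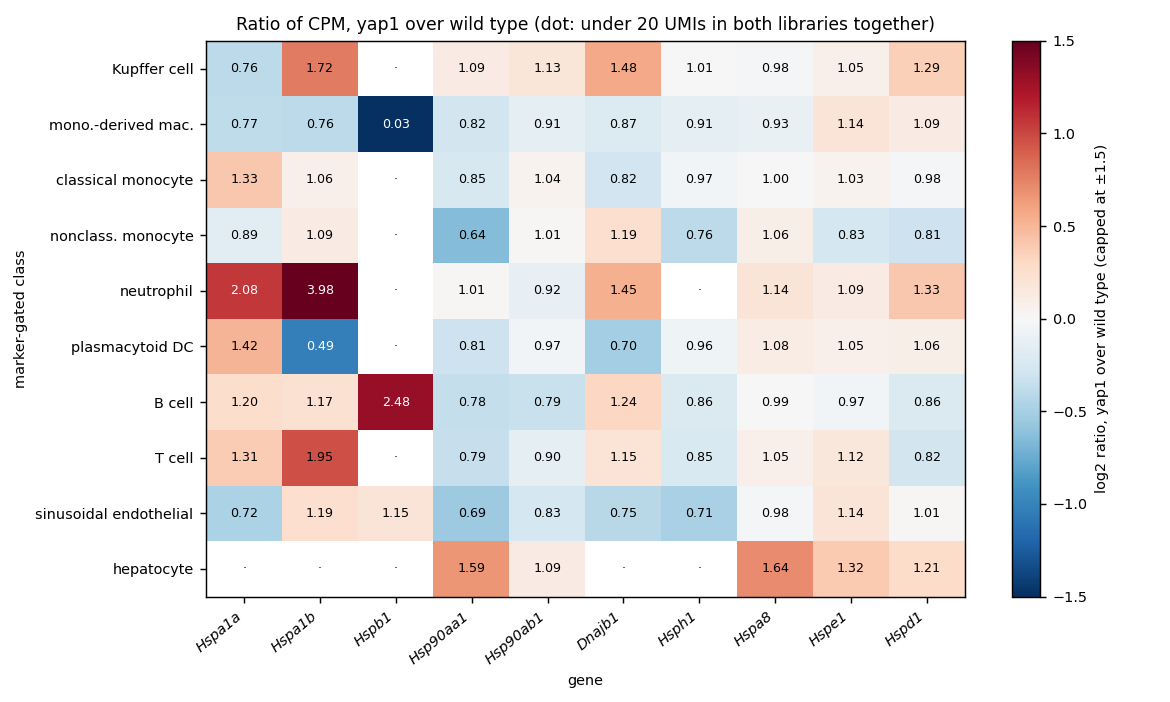
Ratio of CPM, yap1 over wild type, for each member and compared class. The number in each cell is the ratio, the colour its log2 value (capped at 1.5 in either direction), and a dot marks pairs with fewer than 20 UMIs in both libraries together. The Hsp90aa1 column is below 1 in 7 of 10 classes, and the extremes are Hspb1 in monocyte-derived macrophage-like cells (0.03) and Hspa1b in neutrophil-like cells (3.98).

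The constitutive and mitochondrial genes differed little outside hepatocyte-like cells. Hspa8 lay between 0.925 and 1.14 in the other 9 classes and Hsp90ab1 between 0.793 and 1.13. Hspe1 was above 1 in 8 of 10 classes and passed 1.5-fold in none, and Hspd1 lay between 0.807 and 1.33. In hepatocyte-like cells Hspa8 had a ratio of 1.64 (1.39 to 1.93), with 958 and 1567 CPM. The 5 members with enough UMIs were all above 1 there, as were 1655 of all 2828 genes compared, 19.9% of which were at least 1.5-fold higher. Among other genes of the same cells the cochaperones Fkbp4 (2.03) and Ptges3 (2.00) and the J-domain gene Dnaja1 (1.83) were higher and Cdc37 (0.539) lower. The share of mitochondrial UMIs in these barcodes also differed, at 1.14% and 0.334%, and its part in these ratios was not tested. Dnajb1 ranged from 0.703 to 1.48 and passed 1.5-fold in no class.

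The rest of the folding machinery was described from 9 other lists of genes. Over all classes, the chaperonin TRiC and its partner prefoldin, which fold actin and tubulin, had 0 pairs lower and 8 higher of 130. The 8 were all in neutrophil-like (5) and hepatocyte-like cells (3), where 23.4% and 19.9% of all genes were higher. For this list and the lists that follow, 7.83% lower and 9.03% higher is the share over all genes. By class, 13 of 13 genes were below 1 in B cell-like (against 53.8% of all genes compared, and in this way for the next classes), 12 in sinusoidal endothelial cell-like (53.7%), 11 in T cell-like (54.7%), 10 in classical monocyte-like (51.7%) and 10 in plasmacytoid dendritic cell-like cells (54.2%). Kupffer cell-like cells had 3 below 1 (50.4%), hepatocyte-like cells 2 (41.5%), and both monocyte-derived macrophage-like (47.4%) and nonclassical monocyte-like cells (54.8%) had 4. None was below 1 in neutrophil-like cells (30.9%), with a median log2 ratio of 0.36. Scaling by the median of ratios in place of total UMIs lowers every log2 ratio of neutrophil-like cells by 0.13. The genes below 1 then number 13 of 13 in B cell-like, 12 of 13 in sinusoidal endothelial cell-like, 8 of 13 in T cell-like and 1 of 13 in neutrophil-like cells. Cct3 had 0.725 and Cct2 0.818 in B cell-like cells. Cochaperones of HSP70 and HSP90 had 8 lower (4.94%) and 12 higher (7.41%) of 162 pairs, both below the share over all genes. In neutrophil-like cells, where 23.4% of all genes were higher, 7 of 14 were, such as St13 (3.12) and Stip1 (2.57). Fkbp5, a glucocorticoid-responsive HSP90 partner, was past 1.5-fold lower in nonclassical monocyte-like (0.384, 0.288 to 0.507), monocyte-derived macrophage-like (0.407, 0.304 to 0.541), classical monocyte-like (0.530), Kupffer cell-like (0.567) and plasmacytoid dendritic cell-like cells (0.637). It was 0.667 in B cell-like, 0.805 in sinusoidal endothelial cell-like, 0.919 in neutrophil-like and 1.15 in T cell-like cells.

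Endoplasmic reticulum chaperones had 9 pairs lower (5.08%) and 5 higher (2.82%) of 177, below the share over all genes, with Herpud1 at 0.353 (0.258 to 0.474) and Creld2 at 2.38 in Kupffer cell-like cells. Other mitochondrial chaperones had 3 (4.17%) and 4 (5.56%) of 72, with Hspa9, the mitochondrial HSP70, at 0.807 in B cell-like and 1.43 in hepatocyte-like cells. Other J-domain proteins had 6 (5.50%) and 4 (3.67%) of 109, other cytosolic HSP70 genes 3 (7.14%) and 2 (4.76%) of 42, other small heat shock proteins 0 and 2 of 9, and heat shock factors with their feedback genes 0 and 4 (6.67%) of 60. The share over all genes was exceeded only by the 2 of 9 pairs (22.2%) of small heat shock proteins, the immediate early genes apart. The immediate early genes passed 1.5-fold most often of these lists by count, with 29 lower (19.2%) and 17 higher (11.3%) of 151 pairs. In Kupffer cell-like cells 11 of 16 were lower and their median log2 ratio was -0.78, while the median of the members was 0.12. In B cell-like cells Fos (2.01) and Egr1 (1.79) were higher and Ier3 (0.405) lower.

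Over the 20 combinations of class and library, and among 12327 genes with at least 50 UMIs, the genes whose levels were most like those of selected members were named. For Hspa1a they were Akap10 (Pearson's r of log2 CPM 0.936), Etv3 (0.931) and Sfxn3 (0.929). For Hspb1 they were Zmynd15 (0.871), Gas6 (0.829) and Rusc2 (0.819), over points that include the wild-type macrophage-like value set by 1 barcode. Hsp90ab1 was most like Serbp1 (0.963), Ssrp1 (0.9599) and Npepl1 (0.957), and Hspa8 most like Rpl7a (0.916), Rsl24d1 and Btf3 (both 0.915), of which Rpl7a is a ribosomal protein gene. Hspd1 was most like Hspa9 (0.963), Dpy30 (0.956) and Mrpl12 (0.954), of which Hspa9 encodes the mitochondrial HSP70 and Mrpl12 a mitochondrial ribosomal protein. The points come in pairs of the same class, so these values mainly reflect the order of the classes.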

How the data were processed

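Droplet libraries of liver nonparenchymal cells, 1 per genotype, were analysed. The values are raw UMI counts per gene and barcode, as deposited by the authors. The submitters' processing notes name build mm10, Bowtie 0.12.2 and Seurat, but no source used here names the counting program. Barcodes were kept from 500 UMIs and 200 genes upward, up to a mitochondrial share of 20%. A cell joined a class when at least 3 of its markers had a UMI and its share of markers found was at least 0.2 above that of every other of 19 marker lists. CPM has exact Poisson intervals, ratios have exact conditional binomial intervals and shares have Clopper-Pearson intervals, and a count of 0 is taken to allow 3 counts. Where cells were thinned to 1000 UMIs, 225 wild-type and 189 yap1 cells of the compared classes were too shallow and were left out. A difference was counted at 1.5-fold with at least 20 UMIs over both libraries. Correlations between members used combinations of class and library with enough drawn UMIs.

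Scrublet (scanpy 1.11.5) marked 4 (0.0825%) and 32 (0.771%) cells as doublets with its automatic threshold. The first share is too small for the caller to have worked, so no cell was removed, and the 4% with the highest scores (194 and 166 cells) were left out as an alternative. All 10 members are named. Of every other list, the 3 genes per class that were farthest from a ratio of 1, given 50 UMIs or more, were eligible to be named, and likeness used log2(CPM + 10). Other alternatives changed the cell filter, the gate, the scaling, the weighting of cells and the minimum of UMIs. The members and lists were chosen with earlier results of these data known. The scripts (scipy 1.17.1 and numpy 2.4.6 under Python 3.11.15) were tested on simulated data. Trac, Trbc2 and Cct6a of the lists were not among the genes used here.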

Additional observations from a re-analysis of the deposited data

Results flagged for a closer look

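Some members had ratios of yap1 to wild-type CPM past 1.5-fold in one class and on the other side of 1, or near it, in another. The differences between classes were not tested, since each class of a genotype comes from 1 library. Hspa1b had a ratio of 0.493 in plasmacytoid dendritic cell-like, 1.72 in Kupffer cell-like, 1.95 in T cell-like and 3.98 in neutrophil-like cells. Hspb1 had 0.0339 in monocyte-derived macrophage-like and 2.48 in B cell-like cells. Hsp90aa1 had 0.638 in nonclassical monocyte-like and 1.59 in hepatocyte-like cells.

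The members were also detected in barcodes that failed the cell filters and enter no comparison. Together they stood at 1679.9 CPM in 422 such wild-type barcodes and at 1092.4 CPM in 582 such yap1 barcodes.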

How the results depend on the processing

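Against 3 pairs of member and class past 1.5-fold lower, there were 6 with a stricter cell filter, 8 with at most 5% mitochondrial UMIs, 5 with a gate margin of 0.35, 5 with cells weighted equally, 8 with cells thinned to 1000 UMIs and 7 with no minimum of UMIs. Without the cells rich in Hspa1a and Hspa1b, an alternative chosen after seeing the data, there was 1. Against 7 pairs higher, there were 11 with at most 5% mitochondrial UMIs, 4 with thinned cells, 3 at 2-fold and 13 with no minimum of UMIs. The Hspa1a ratio in neutrophil-like cells reversed to 0.588 with a gate margin of 0.35. The Hspa1b ratio in plasmacytoid dendritic cell-like cells reversed to 3.34 with at most 5% mitochondrial UMIs. It was 1.01 without the cells rich in Hspa1a and Hspa1b, which left out 1 wild-type cell and 0 yap1 cells of the class. The Hspb1 ratio in B cell-like cells reversed to 0.582 with the highest doublet scores left out, to 0.707 with thinned cells and to 0 without the 5 richest cells of each library. The cause was not tested. The Hspa1b ratio in T cell-like cells stayed between 1.73 and 2.72 and the Hsp90aa1 ratio in nonclassical monocyte-like cells between 0.584 and 0.709 over the alternatives run. Thinning moved 43 of 88 ratios outside their interval and leaving out the 5 richest cells 14 of 87. Hspb1 reached 20 UMIs over both libraries in 3 of 10 classes, and depth limits its ratios in the others. No paired analysis was possible because each genotype has 1 library, and no replicate could be left out.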
